A study of Mus musculus with 39 samples.

Results

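RNA-seq counts were read in 18 wild-type (WT) epiblasts of the mouse, 9 taken at embryonic day (E) 6.5 and 9 taken at E7.5. These libraries were chosen by their labels, as the WT libraries of both stages, and are 18 of the 39 libraries of the series and 18 of its 35 epiblast libraries. The study asked what *Stat3* does in the early embryo and compared WT with *Stat3* null epiblasts at stages from E5.5 to E7.5. The WT embryos came from crosses of *Stat3* heterozygotes on the CD1 background. Each was genotyped by PCR on its extraembryonic tissue as carrying no null allele, an allele in which exons 20 to 22 are replaced by a neomycin resistance gene. The extraembryonic ectoderm and the visceral endoderm were dissected away from each epiblast. Each library was made from 1 epiblast, no treatment was applied, the litters are not given, and the sex of the embryos was not determined by the study. P-values therefore measure the spread between these epiblasts, of which some may be littermates. The question that the stage comparison answers is which genes differ between the epiblast at the onset of gastrulation and the embryo proper a day later.

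The epiblast is the pluripotent epithelium that gives rise to the embryo proper. During gastrulation its posterior cells pass through the primitive streak, where WNT, Nodal, BMP and FGF signals meet, lose their epithelial contacts and leave as mesoderm and definitive endoderm, while anterior cells turn to neural and surface ectoderm. In an E7.5 dissection the tissue called epiblast by its label may therefore hold cells of all germ layers. The epiblast markers *Pou5f1*, *Sox2*, *Nanog* and *Utf1* were detected in all 18 libraries, at no less than 156, 33.6, 5.79 and 6.70 CPM, in the unit defined below. A bulk library gives the mean over those cells, so fewer cells of a type and less RNA per cell cannot be told apart in any of the values given here.

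The libraries held between 25793920 and 39477197 counts at E7.5. At E6.5, epiblasts 4 to 9 held between 28837665 and 36540246 counts and epiblasts 1 to 3 between 63991130 and 70922482. Levels are given as CPM, the counts scaled to 1000000 per library with its TMM factor, on which a count of 3 in 1 library corresponded to between 0.0439 and 0.114 CPM. These values compare 1 gene between libraries, not genes with each other, because they are not divided by gene length. Genes were tested with edgeR's quasi-likelihood test, and a gene was called at an absolute log2 fold change over 1 and a Benjamini-Hochberg adjusted p under 0.05. Every log2 fold change is E7.5 minus E6.5 and is given with its SE.

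A pair of libraries stood apart from their stage. The library labelled E7.5 WT 3 resembled the E6.5 libraries more than its own stage. Over the 500 most variable genes it correlated at 0.826 with the mean E6.5 profile and at 0.502 with the mean of the other E7.5 libraries. The other 8 E7.5 libraries correlated at 0.241 to 0.372 with the E6.5 mean and at 0.888 to 0.942 with their own stage. When E7.5 WT 3 was left out, 1902 genes were called, and for 1531 of these (80.5%) its level was nearer to the E6.5 mean than to that of the other E7.5 epiblasts. Its levels lay within the E6.5 range for 1473 of the 1902 genes, and within the range of the other E7.5 libraries for 452. E6.5 WT 3 lay farthest from its own stage, at a distance (1 minus the correlation with the mean of the others) of 0.324 against 0.108 to 0.173 for the other E6.5 libraries. It held the highest summed level of visceral endoderm markers, 6037 CPM, and of mitochondrially encoded genes, 20234 CPM. Neither library was left out of the values below, and values without E7.5 WT 3 are given for some results. The E6.5 epiblasts also differed among themselves, in genes chosen after their values were seen. *T* lay between 0 and 3.96 CPM in E6.5 WT 1 to 4 and between 22.9 and 58.6 CPM in 5 to 9. For *Eomes* these ranges were 89.2 to 143 and 300.5 to 452 CPM. For *Nanog* they were 17.5 to 24.5 and 40.1 to 52.7 CPM, and for *Axin2* 45.6 to 52.6 and 102 to 126 CPM. By depth E6.5 WT 4 stood with 5 to 9, and the cause was not tested.

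Of 17191 genes tested, 987 (5.74%) were higher and 531 (3.09%) were lower at E7.5, 1518 in all (8.83%). The median log2 fold change of all genes tested was 0.01. Changes over 8-fold were found for 264 of the higher and 80 of the lower genes. Protein coding genes made up 882 of the higher and 418 of the lower calls, and long non-coding genes 33 and 81. The levels of the stages did not overlap for 415 genes tested (2.41%), of which 244 were called. Without E7.5 WT 3, 1213 genes were higher (6.95%) and 689 were lower (3.95%), 1902 in all (10.9%), 1502 of the 1518 calls remained, none in the other direction, and 1629 of 17459 genes (9.33%) did not overlap. Of the 335 genes of the lists described below 267 were tested, 97 rose, 25 fell and 23 did not overlap, and without E7.5 WT 3 282 were tested, 119 rose, 34 fell and 118 did not overlap. The lists were chosen with earlier results of these data known, so their numbers are a description beside those of all genes. The share of calls that were higher was 65.02%, and it was 78.3% in libraries under 40000000 counts alone and 75.3% with depth above that limit as a covariate. The number of genes at 1 CPM or more was larger at E7.5, 14925 ± 221 (SD, n = 9) against 14457 ± 169 at E6.5 (two-sided exact permutation test, p = 0.000576, adjusted p = 0.00115 over 2 values tested).

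**Figure D1:**
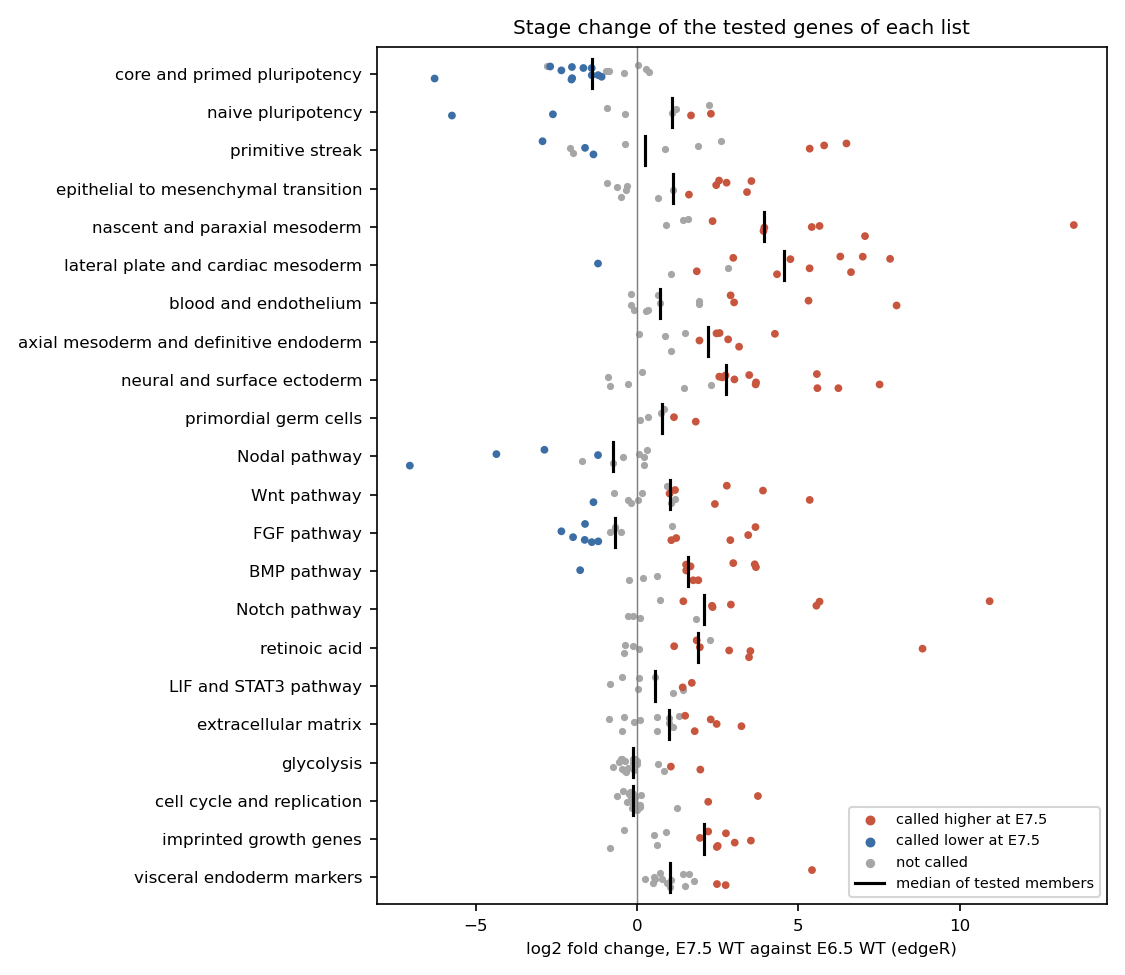
Log2 fold change of each tested gene (points) of the gene lists between WT E6.5 and E7.5 epiblasts (x axis), with 1 list per line, called genes in colour and the list's median as a bar. Of the lists plotted, which leave out the HOX genes, the mesoderm lists sit farthest to the right, with medians of 3.93 and 4.54, and the core and primed pluripotency list to the left, with a median of -1.41.

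Core and primed pluripotency genes keep the epiblast pluripotent. Of 18 of these genes, 11 fell and 7 were not called, with a list median of -1.41, and 14 fell without E7.5 WT 3. Of the 7, *Lin28a*, an RNA-binding protein of early cells, and *Sall4*, a zinc finger factor, had positive log2 fold changes of 0.36 (SE 0.08, adjusted p = 0.00148) and 0.27 (SE 0.05, adjusted p = 5.73e-04), under the size of a call. *Dppa4*, a chromatin-associated gene of pluripotent cells, lay between 2.53 and 37.3 CPM at E6.5 and between 0 and 1.45 CPM at E7.5 (median 0). Its groups did not overlap, and it fell by 6.28 on the log2 scale (SE 1.16, adjusted p = 6.58e-04). *Fgf5*, a ligand that marks the primed epiblast, had a median of 123 CPM at E6.5 (range 88.9 to 128) and of 6.24 CPM at E7.5 (range 2.68 to 158). The highest E7.5 value came from E7.5 WT 3, the other 8 lay below all E6.5 libraries, and the log2 fold change was -2.35 (SE 0.77, adjusted p = 0.0342) with that library and -4.39 without it. This call was lost in libraries under 40000000 counts and when any of the other 8 E7.5 libraries was left out. *Otx2*, a homeobox gene of the primed epiblast and later of the anterior embryo, had a median of 182 CPM at E6.5 and 51.3 CPM at E7.5 (log2 fold change -1.41, SE 0.24, adjusted p = 3.13e-04, and -1.76 without E7.5 WT 3). The de novo DNA methyltransferase *Dnmt3a* had medians of 419 and 198 CPM and its log2 fold change was -1.1 (SE 0.16, adjusted p = 8.49e-05). *Etv5*, an ETS factor of the FGF response, lay between 259 and 332 CPM at E6.5 and between 53.8 and 258 CPM at E7.5, and fell by 1.67 (SE 0.25, adjusted p = 1.15e-04), by 2.03 without E7.5 WT 3. In *Otx2* and *Dnmt3a* E7.5 WT 3 (186 and 424 CPM) was the E7.5 library that lay within the E6.5 range, and the stages did not overlap without it. *Zscan10*, a zinc finger gene of pluripotent cells, had medians of 179 and 92.2 CPM and a log2 fold change of -0.86 (SE 0.14), under the size of a call.

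The 3 core factors differed from each other. *Nanog* fell by 1.21 on the log2 scale (SE 0.32, adjusted p = 0.00817), from a median of 40.1 CPM (range 17.5 to 52.7) to 17.2 CPM (5.79 to 31.9), and its groups overlapped. *Pou5f1*, which encodes OCT4, had medians of 639 CPM (range 427 to 679) and 312 CPM (156 to 607). Its log2 fold change of -0.96 (SE 0.22, adjusted p = 0.00371) did not reach the size that a call needs, while without E7.5 WT 3 it was -1.14 and called, and it was also called without E6.5 WT 3 or E7.5 WT 9. *Sox2*, which is also kept in neural progenitors, had medians of 52 CPM at E6.5 and 49.1 CPM at E7.5 and a log2 fold change of 0.02 (SE 0.14, adjusted p = 0.926). Of these factors *Nanog* was thus called with all libraries, and *Pou5f1* and *Sox2* were not.

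The naive state is the pluripotency of the preimplantation embryo. Of 9 tested of its 10 listed genes, 2 rose, 2 fell and 5 were not called, with a list median of 1.07. The number that rose was between 0 and 5 when single libraries were left out, with 5 without E6.5 WT 3 and 0 without any of E6.5 WT 2 or 5 to 9 or E7.5 WT 5 to 7. *Zfp42* (REX1) had medians of 1.88 and 0.487 CPM and fell by 2.61 on the log2 scale (SE 0.83, adjusted p = 0.0255), and this call was lost without E6.5 WT 3 and in libraries under 40000000 counts. *Dppa5a* lay between 3.99 and 20.7 CPM at E6.5 and between 0 and 0.683 CPM at E7.5 (log2 fold change -5.74, SE 0.89, adjusted p = 1.27e-04). *Esrrb*, an orphan nuclear receptor, was not called, with medians of 1.23 and 1.01 CPM. The members that rose were *Tbx3* and *Klf4*, transcription factors that are also used outside the naive state. *Tbx3* had a median of 3.56 CPM at E6.5 (range 1.67 to 44.2) and 51.2 CPM at E7.5 (2.63 to 97.8), and *Klf4* medians of 1.03 and 5.62 CPM. The call of *Tbx3* was lost without any of E6.5 WT 2 or 5 to 9 or E7.5 WT 4 to 7, that of *Klf4* without any of E6.5 WT 2 or 5 to 9 or E7.5 WT 2, 5, 6, 7 or 9, and the groups overlapped for both. *Nanog*, *Zfp42*, *Etv5* and *Dppa5a* have near-identical copies elsewhere in the genome, so their counts are uncertain to the extent that reads were split between copies.

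Genes of the primitive streak went in both directions. Of 12 tested of 14 listed, 3 rose, 3 fell and 6 were not called (list median 0.24), 5 rose and 4 fell of 13 without E7.5 WT 3, and 5 rose without E6.5 WT 7. The genes that fell were *Eomes*, *Fgf8* and *Wnt3*. *Eomes*, a T-box factor of the early streak and of endoderm and cardiac mesoderm, lay between 89.2 and 452 CPM at E6.5 (median 300.5) and between 2.81 and 206 CPM at E7.5 (median 12.5). The value of 206 CPM in E7.5 WT 3 alone overlapped the E6.5 range, and the log2 fold change was -2.93 (SE 0.80, adjusted p = 0.0124) with it and -4.46 without it. *Wnt3*, the ligand that starts the streak, had medians of 11.4 CPM (range 1.34 to 24.4) and 4.19 CPM (1.18 to 9.19). Its log2 fold change was -1.35 (SE 0.47, adjusted p = 0.0390), and the call was lost when any of E6.5 WT 5 to 9 or E7.5 WT 4 to 9 was left out. *Mixl1*, a homeobox gene of the early streak, had medians of 26.2 and 5.52 CPM and a log2 fold change of -2.0 that was not called (SE 0.86, adjusted p = 0.0987), and it was called in libraries under 40000000 counts (-2.49) and with depth above that limit as a covariate.

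The genes of the later, posterior streak that rose were *Wnt3a*, *Cdx2* and *Nkx1-2*. *Wnt3a*, a ligand of the late streak and tail bud, lay between 0 and 1.07 CPM at E6.5 and, in the 8 E7.5 libraries other than E7.5 WT 3, between 11.6 and 22.8 CPM. E7.5 WT 3 held 0.284 CPM, and over all 18 libraries the log2 fold change was 5.35 (SE 1.01, adjusted p = 7.66e-04), and 5.52 without that library. *Nkx1-2*, a homeobox gene of the posterior progenitors, went from a median of 1.38 CPM (range 0.416 to 4.47) to 132 CPM (2.81 to 176), a log2 fold change of 5.8 (SE 0.64, adjusted p = 1.47e-05). *Cdx2*, a caudal homeobox gene upstream of posterior HOX genes, had medians of 0.615 and 63.4 CPM (log2 fold change 6.49, SE 0.79, adjusted p = 2.81e-05, and 6.66 without E7.5 WT 3). In all 3 genes the low E7.5 value came from E7.5 WT 3 and the other 8 epiblasts lay above every E6.5 epiblast. *T* (Brachyury), the T-box factor of the streak and notochord, had medians of 22.9 CPM (range 0 to 58.6) and 180.1 CPM (5.55 to 231). Its log2 fold change of 2.61 (SE 0.99, adjusted p = 0.0647) was not called with all libraries, and was 2.77 and called without E7.5 WT 3. It was also called in libraries under 40000000 counts.

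**Figure D2:**
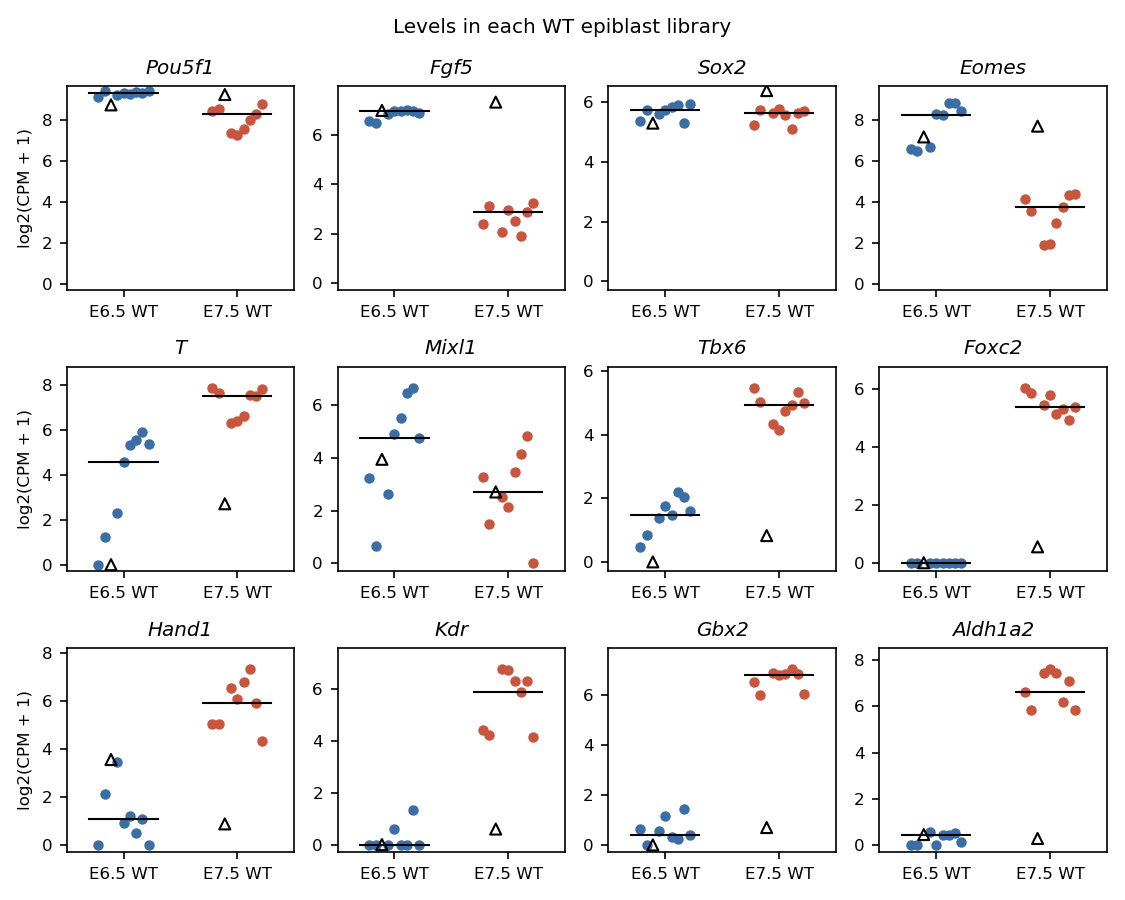
Level of single genes (y axis, log2 of CPM + 1) in each of the 9 E6.5 and 9 E7.5 WT epiblasts (points), with the median as a line and the libraries of replicate 3 as open triangles. The open triangle of E7.5 lies among the E6.5 values for *Eomes* and above them for *Fgf5*, and for *Tbx6*, *Gbx2*, *Aldh1a2* and *Kdr* it lies down among them.

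The passage through the streak is an epithelial to mesenchymal transition, in which SNAIL, TWIST and ZEB factors accompany the loss of E-cadherin. Of 13 genes of this transition tested of 14, 6 rose and 7 were not called (list median 1.11), and without E7.5 WT 3 8 rose and 1 fell of 14. *Vim*, the intermediate filament of mesenchyme, had a median of 26.4 CPM at E6.5 (range 21.8 to 37.3) and 156 CPM at E7.5 (38.4 to 212). Its groups did not overlap even with E7.5 WT 3, which held the lowest E7.5 level, and its log2 fold change was 2.45 (SE 0.22, adjusted p = 2.38e-06). *Fn1*, the matrix protein fibronectin, went from a median of 249 CPM to 1701 CPM (log2 fold change 2.54, SE 0.29, adjusted p = 2.00e-05). *Twist1* had medians of 3.14 and 25.5 CPM and a log2 fold change of 2.77 (SE 0.42, adjusted p = 1.01e-04). Mesenchymal cells use N-cadherin for contact and epithelial cells E-cadherin. *Cdh2* (N-cadherin) lay between 13.9 and 77.4 CPM at E6.5 (median 21.4) and between 32.3 and 107 CPM at E7.5 (median 95), and rose by 1.61 on the log2 scale (SE 0.31, adjusted p = 8.50e-04). *Cdh1* (E-cadherin) had medians of 670.1 CPM (range 619 to 821) and 459 CPM (312 to 633). Its log2 fold change of -0.62 (SE 0.11, adjusted p = 2.47e-04) was under the size of a call. The epithelial adhesion molecule *Epcam* had medians of 275 and 124 CPM and a log2 fold change of -0.95, called only in alternatives such as the one without E7.5 WT 3 (-1.1). *Snai1*, the repressor of E-cadherin, was not called (medians 9.32 and 20.01 CPM, log2 fold change 1.11, SE 0.43, adjusted p = 0.0640), and it was called without E7.5 WT 3, without E6.5 WT 7 or without E6.5 WT 8.

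The mesoderm lists had the highest medians of the lists other than the HOX genes. Of 10 tested genes of nascent and paraxial mesoderm (11 listed), 7 rose and 3 were not called, with a list median of 3.93, and without E7.5 WT 3 8 rose of 11. *Foxc2*, a forkhead factor of paraxial and other mesoderm, had no count in any E6.5 library. At E7.5 its median was 41.1 CPM, with 0.465 CPM in E7.5 WT 3 and between 29.4 and 65 CPM in the other 8. Against the level of 3 counts per library the mean E7.5 level was at least 516-fold higher. *Foxc1*, its paralogue, lay between 0 and 1.14 CPM at E6.5 and had a median of 53.9 CPM at E7.5 (log2 fold change 7.06, SE 0.87, adjusted p = 3.12e-05). *Pdgfra*, a receptor kinase carried by early mesoderm, went from a median of 8.61 CPM (range 2.6 to 18.9) to 151 CPM (4.16 to 192) and rose by 3.92 on the log2 scale (SE 0.55, adjusted p = 8.93e-05). *Tbx6*, the T-box factor that directs cells to paraxial mesoderm, had medians of 1.78 and 29.96 CPM (log2 fold change 3.94, SE 0.69, adjusted p = 4.58e-04). *Mesp1*, a basic helix-loop-helix factor that cells express briefly as they leave the streak, was not called. Its levels ran from 0 to 26.2 CPM at E6.5 and from 2.79 to 42.7 CPM at E7.5, with medians of 1.71 and 11.7 CPM and a log2 fold change of 1.41 (SE 1.16, adjusted p = 0.421). The E6.5 epiblasts thus differed among themselves in *Mesp1*, and the groups overlapped.

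Of 12 tested genes of lateral plate and cardiac mesoderm (14 listed), 9 rose, 1 fell and 2 were not called (list median 4.54). *Hand2*, a factor of heart and limb mesoderm, lay between 0 and 0.995 CPM at E6.5 and between 2.74 and 36.5 CPM at E7.5. Its groups did not overlap, and the log2 fold change was 6.3 (SE 0.84, adjusted p = 4.74e-05). *Osr1*, an early marker of intermediate and lateral mesoderm, lay at or below 0.298 CPM at E6.5 and between 1.16 and 10.6 CPM at E7.5 (log2 fold change 6.99, SE 1.02, adjusted p = 6.70e-05). *Foxf1*, of extraembryonic and lateral mesoderm, reached 0.633 CPM at E6.5 and had a median of 31.2 CPM at E7.5, and the cardiac factor *Tbx20* reached 0.860 CPM and had a median of 18.8 CPM. *Hand1*, shared by lateral, cardiac and extraembryonic mesoderm, had medians of 1.13 and 60.4 CPM and a log2 fold change of 4.34 (SE 1.02, adjusted p = 0.00480). *Gata4*, which endoderm also expresses, was not called with all libraries (medians 7.42 and 44.5 CPM, log2 fold change 1.04, SE 0.65, adjusted p = 0.271). The highest E6.5 level of *Gata4*, 124 CPM, came from E6.5 WT 3, the library with the highest visceral endoderm markers, and *Gata4* was called without that library (2.19) and when both libraries of replicate 3 were left out (2.32). The part of those markers in the result was not tested.

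Blood and endothelium share a mesodermal progenitor. Of 13 tested of 19 genes listed for them, 4 rose and 9 were not called (list median 0.72). *Kdr*, the VEGF receptor of the haemangioblast and endothelium, had a median of 0 CPM at E6.5 (range 0 to 1.55) and 58.4 CPM at E7.5 (0.516 to 108). With E7.5 WT 3 at 0.516 CPM, within the E6.5 range, the log2 fold change was 8.04 (SE 1.19, adjusted p = 1.38e-04), and 8.22 without it. *Aplnr*, a receptor of early mesoderm, went from 1.26 to 85.5 CPM (medians, log2 fold change 5.31, SE 0.72, adjusted p = 7.39e-05), and the other genes called were *Lmo2* (3.01, SE 0.74) and *Gata2* (2.9, SE 0.76), both early haematopoietic factors. *Tal1*, the master factor of the haemangioblast, had medians of 1.98 and 10.8 CPM and was just short of a call with all libraries (log2 fold change 1.91, SE 0.70, adjusted p = 0.0517), and it was called when E6.5 WT 3 or when E7.5 WT 1, 2, 3 or 9 was left out. At E7.5 it lay between 0.361 and 2.66 CPM in E7.5 WT 1, 2, 3 and 9 and between 10.8 and 19.4 CPM in 4 to 8. For *Lmo2* these ranges were 0.336 to 2.67 and 9.68 to 22.8 CPM, and for *Kdr* 0.516 to 20.3 and 58.4 to 108 CPM. *Aplnr* was not divided in this way. These genes were compared after their values were seen, and the cause was not tested. *Gata1*, of committed red cells, was not called at medians of 0.524 and 0.897 CPM. The embryonic globin *Hbb-bh1* had no count in any of the 18 libraries, and *Hbb-y* and *Hba-x* had none either, each below the level that a count of 3 allows.

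Axial mesoderm, the future notochord, and definitive endoderm leave the anterior end of the streak. Of 10 tested genes of these tissues (12 listed), 6 rose and 4 were not called (list median 2.19), and without E6.5 WT 3 10 of 12 rose, beside 7.43% of all 17535 genes tested in that fit. *Sox17*, the factor of definitive endoderm, lay between 0.0146 and 4.5 CPM at E6.5 and between 7.33 and 37.4 CPM at E7.5. Its groups did not overlap, and it rose by 4.27 on the log2 scale (SE 0.67, adjusted p = 1.87e-04). *Chrd* (chordin), the BMP antagonist of the node and notochord, also did not overlap, at 0 to 6.52 CPM against 7.82 to 26.2 CPM (log2 fold change 2.46, SE 0.55, adjusted p = 0.00260). *Foxj1*, of the ciliated cells of the node, had medians of 1.65 and 19.7 CPM and *Cxcr4*, a chemokine receptor of definitive endoderm, medians of 0.555 and 6.53 CPM, and both were called. *Foxa2*, which endoderm, node and visceral endoderm share, was not called (medians 15.1 and 33.7 CPM, log2 fold change 0.85, SE 0.32, adjusted p = 0.0545) and was called without E6.5 WT 3 (1.09). Visceral endoderm also expresses *Foxa2* and *Sox17*, and the summed level of its markers had medians of 209.9 CPM at E6.5 and 1799 CPM at E7.5. Their part in these changes was not tested.

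Anterior epiblast gives rise to neural and surface ectoderm. Of 17 tested of 20 genes listed for these tissues, 11 rose and 6 were not called (list median 2.74). *Irx3*, of the posterior neural plate and of mesoderm, lay between 0 and 4.95 CPM at E6.5 and between 5.16 and 145 CPM at E7.5 (median 135). E7.5 WT 3 held the 5.16 CPM, just above the highest E6.5 epiblast, the next E7.5 library held 120.2 CPM, and the log2 fold change was 5.57 (SE 0.80, adjusted p = 1.11e-04). *Gbx2*, a homeobox gene of the posterior embryo and hindbrain, went from a median of 0.330 CPM to 112 CPM (log2 fold change 7.51, SE 0.89, adjusted p = 2.65e-05, and 7.69 without E7.5 WT 3). *Six3*, of the forebrain, went from 1.17 to 16.7 CPM (log2 fold change 3.47, SE 0.48, adjusted p = 4.72e-05). *Tfap2a*, a factor of surface ectoderm and neural crest, had medians of 1.67 and 26.3 CPM and a log2 fold change of 3.67 (SE 0.47, adjusted p = 2.81e-05). *Sox1*, the earliest gene particular to neural cells, was at 1.27 and 7.72 CPM (medians) and was called (log2 fold change 2.55, SE 0.73, adjusted p = 0.0143), with groups that overlapped. *Pax6*, a later neural gene, was at 0.176 and 1.92 CPM with an adjusted p of 0.0456, and its call was lost without any of E6.5 WT 2, 4, 5, 6 or 7 or E7.5 WT 1, 2, 4, 5, 6 or 9. Without E7.5 WT 3, 12 of 18 tested genes of this list rose and 2 fell. *Zic2* had medians of 236 CPM at E6.5 and 96.4 CPM at E7.5, and *Zic5* of 145 and 58.5 CPM. E7.5 WT 3 held the highest E7.5 levels of *Zic2* and *Zic5*, 261 and 162 CPM.

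Primordial germ cells arise from the posterior epiblast at this time. Of 6 tested genes of germ cells (8 listed), *Prdm1* (medians 1.38 and 13.2 CPM, log2 fold change 1.82, SE 0.59, adjusted p = 0.0302) and *Alpl* (medians 12.8 and 29.1 CPM, log2 fold change 1.14, SE 0.26, adjusted p = 0.00244) rose. *Prdm1* encodes BLIMP1, which visceral endoderm also expresses, and *Alpl* is an alkaline phosphatase that marks pluripotent as well as germ cells. The call of *Prdm1* was lost without any of E6.5 WT 4, 7 or 9 or E7.5 WT 4, 5 or 6. *Kit*, a receptor of germ cells and other migrating cells, and *Tfap2c*, a factor of germ cells and trophoblast, were not called (log2 fold changes 0.73, SE 0.17, and 0.84, SE 0.55). *Dppa3* (STELLA), which is particular to germ cells at this stage, was not tested with all libraries because of low counts, with at most 4.18 CPM at E6.5 and 0.232 CPM at E7.5. With the filter of 5 libraries, which it passed through its E6.5 level alone, it was called lower, beside 585 of all 19268 genes. DESeq2 called 1 of the 8 genes of this list lower, beside 770 genes over the whole table.

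**Figure D3:**
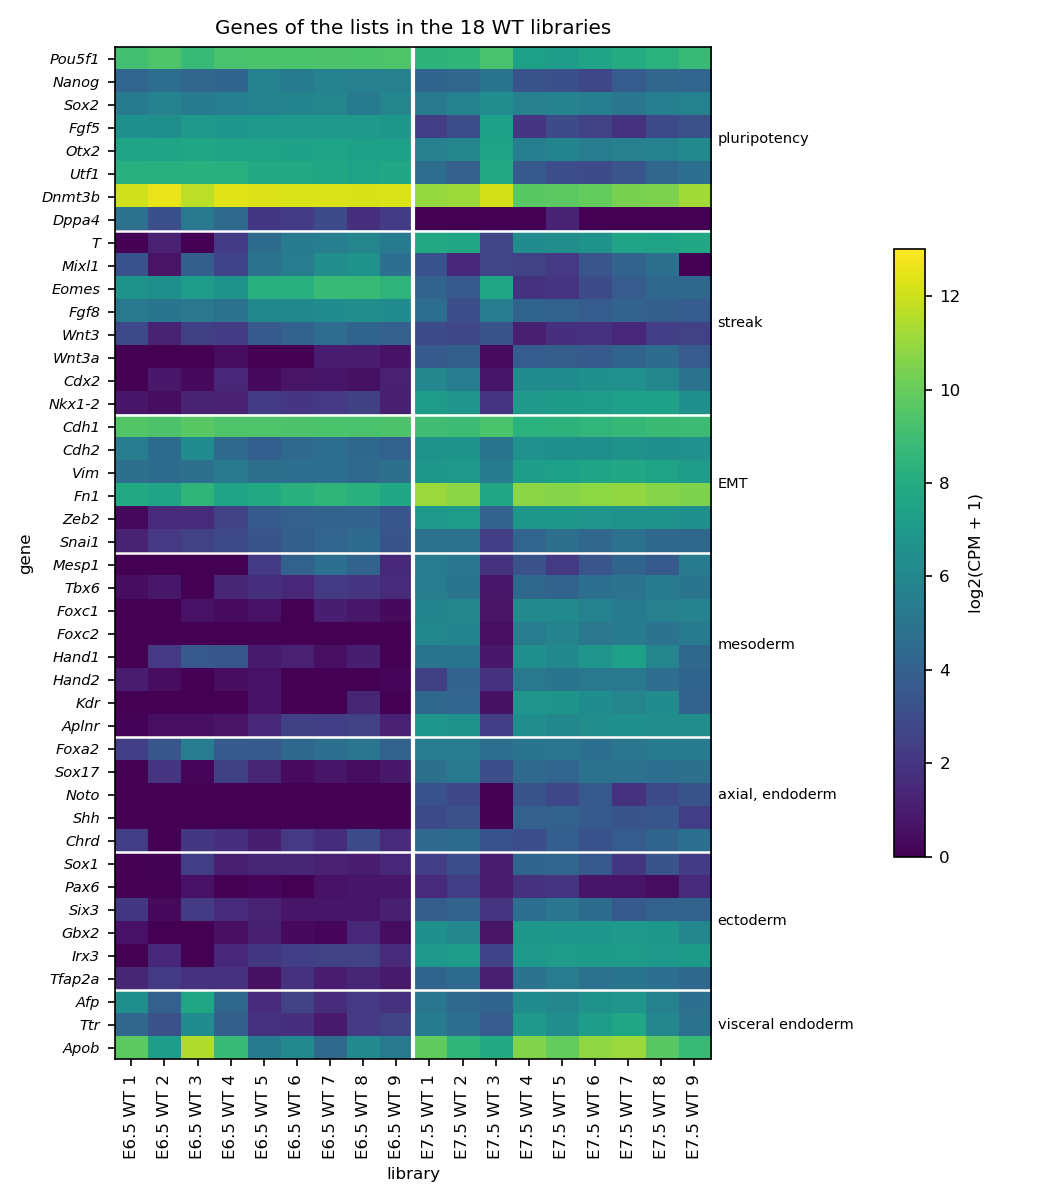
Levels of 44 chosen genes of the lists, in 7 groups (1 gene per line, colour is log2 of CPM + 1), in each of the 18 WT epiblasts, 1 per column. The column of E7.5 WT 3 has the colours of the E6.5 columns in most lines, beside its correlations of 0.826 with E6.5 and 0.502 with E7.5.

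HOX genes give posterior cells their position along the body axis and are switched on in order along each cluster, from the 3' end to the 5' end. Of 39 HOX genes, 26 had no count in the 9 E6.5 libraries and 33 had none in E7.5 WT 3. The filter on low counts needs 9 libraries, so it kept 2 HOX genes, of which *Hoxd1* rose (medians 0.252 and 2.99 CPM, log2 fold change 3.88, SE 0.83, adjusted p = 0.00164). With a filter that needs 10 counts in 5 libraries, which was chosen after the data were seen, 18 HOX genes were tested and 16 rose, beside 6.12% of all 19268 genes tested in this way. Genes silent at E6.5 can pass this filter only through their E7.5 level, so their number called is given as a description. *Hoxb1* (chr11:96365752-96368256 in GRCm38), the 3' member of its cluster, had no count at E6.5 and a median of 42.7 CPM at E7.5. It was at 0 in E7.5 WT 3 and between 28.9 and 59.4 CPM in the other 8, a mean at least 493-fold above the level of 3 counts per library. *Hoxb9*, near the 5' end of the genes called in that cluster, had no count at E6.5, a median of 1.07 CPM at E7.5 and a highest level of 9.05 CPM (at least 36.1-fold). *Hoxa11*, the last called of the Hoxa cluster, had medians of 0 and 0.515 CPM. *Hoxd9*, the last called of the Hoxd cluster, had no count at E6.5 and reached 5.46 CPM at E7.5 (median 1.03).

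Along the clusters, 8 E7.5 epiblasts held over 3 counts of *Hoxb1*, *Hoxb2*, *Hoxb3* and *Hoxb4*, between 4 and 6 held them of *Hoxb5* to *Hoxb9*, and none of *Hoxb13*. In the Hoxa cluster the same count was 8 for *Hoxa3*, 6 for *Hoxa4* and *Hoxa5* and between 1 and 4 for *Hoxa6* to *Hoxa10*. No HOX gene of the Hoxc cluster, which has no members 1 to 3, was counted over 3 times in more than 4 E7.5 epiblasts. The number was not in strict order along the clusters, since *Hoxb9* (6 libraries) stood above *Hoxb5* to *Hoxb8* and *Hoxa11* (6 libraries) above *Hoxa6* to *Hoxa10*. The genes named in this order were given for their place in the clusters and are a description, with no test.

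**Figure D4:**
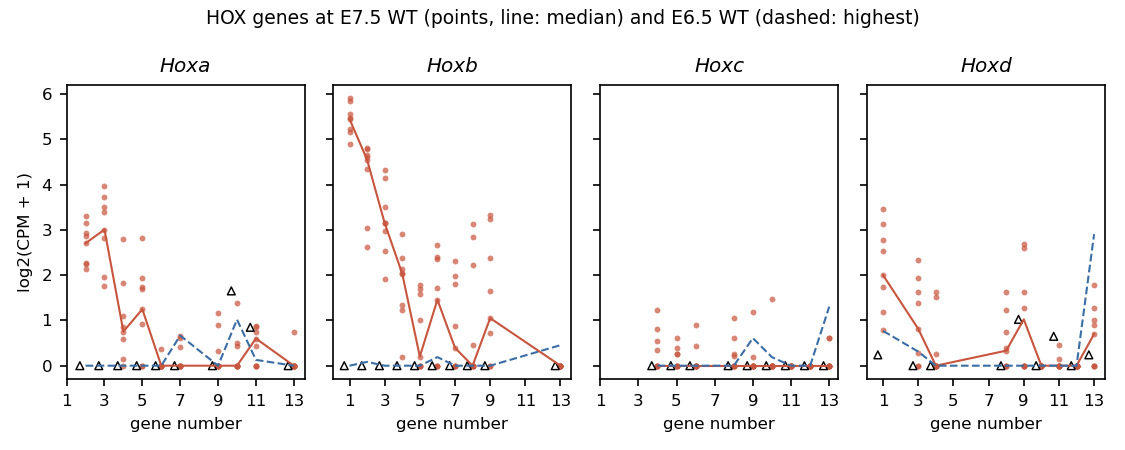
Level of HOX genes (y axis, log2 of CPM + 1) in the 9 E7.5 WT epiblasts (points, open triangles for E7.5 WT 3), with 1 panel per cluster and the gene number on the x axis. The line is the E7.5 median, which runs from 42.7 CPM for *Hoxb1* to 0 for *Hoxb13*, and the dashed line is the highest E6.5 library.

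Over the whole table, 34 genes had no count in any E6.5 epiblast and over 3 counts in each E7.5 epiblast other than E7.5 WT 3. In E7.5 WT 3, 7 of them were over 3 counts. Members of the lists among them were chosen for mention after their values were seen. Among the list members were *Hoxb1*, *Foxc2* and *Hes3*, the paraxial mesoderm factor *Msgn1* (E7.5 median 18.1 CPM, at least 206-fold higher), the ligands *Bmp5* (12.6 CPM, at least 129-fold) and *Shh* (9.11 CPM, at least 113-fold), the notochord factor *Noto* (6.21 CPM, at least 84-fold), the WNT antagonist *Notum* (6.67 CPM, at least 84-fold) and the neural crest and somite factor *Pax3* (2.08 CPM, at least 33.4-fold). Each of the latter 6 was at 0 in E7.5 WT 3.

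Signalling pathways differed in the direction of their called genes. Nodal, a TGF-beta ligand that maintains the epiblast and patterns the streak, signals through activin receptors with the coreceptor CRIPTO (*Tdgf1*) and the DNA-binding partner FOXH1. Of 11 Nodal pathway genes, 4 fell and 7 were not called (list median -0.73). *Nodal* lay between 11.9 and 31.3 CPM at E6.5 and between 0.683 and 10.2 CPM at E7.5. Its groups did not overlap, and it fell by 2.87 on the log2 scale (SE 0.43, adjusted p = 8.69e-05). *Tdgf1* had medians of 113 and 0.481 CPM, did not overlap and fell by 4.36 (SE 1.03, adjusted p = 0.00486), by 6.62 without E7.5 WT 3, which held 40.6 CPM. *Gdf3*, a ligand that signals with Nodal, lay between 1.52 and 25 CPM at E6.5 and at or below 0.266 CPM at E7.5 (log2 fold change -7.05, SE 0.90, adjusted p = 2.19e-05). *Nodal*, *Gdf3* and the coreceptor thus fell, while *Acvr1b*, *Acvr2b*, *Smad2* and *Foxh1*, receptors and signal carriers of the list, had log2 fold changes between 0.06 and 0.29 and were not called.

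The BMP pathway, which posterior mesoderm and germ cells need, went the other way. Of 12 tested BMP pathway genes (14 listed), 8 rose, 1 fell and 3 were not called (list median 1.59). Among the ligands, *Bmp4* had medians of 1.2 CPM (range 0 to 3.44) and 12.4 CPM (1.39 to 23.5), a log2 fold change of 2.98 (SE 0.69, adjusted p = 0.00364), and *Bmp7* medians of 1.71 and 34.3 CPM (3.68, SE 0.82, adjusted p = 0.00306). Among the targets, *Msx2* went from 1.27 to 20.2 CPM (3.64, SE 0.73, adjusted p = 0.00132). *Bambi*, a decoy receptor that BMP induces, did not overlap between stages, at 2.42 to 8.75 CPM against 10.2 to 28.3 CPM (1.52, SE 0.26, adjusted p = 2.26e-04). The gene that fell was *Smad7*, an inhibitor that both the Nodal and the BMP branch induce. Its levels did not overlap, at 94.5 to 163 CPM against 14.1 to 69.7 CPM (-1.77, SE 0.24, adjusted p = 4.96e-05).

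Of 15 tested WNT pathway genes (16 listed), 6 rose, 1 fell and 8 were not called (list median 1.0). Beside *Wnt3*, which fell, and *Wnt3a*, which rose, the ligand *Wnt5a*, of posterior mesoderm and axis elongation, went from a median of 1.89 CPM (range 0.218 to 4.02) to 32.1 CPM (3.05 to 42.2), a log2 fold change of 3.9 (SE 0.48, adjusted p = 2.05e-05). *Rspo3*, a secreted enhancer of WNT signals, had medians of 2.53 and 34.6 CPM (2.78, SE 0.55, adjusted p = 0.00123). *Axin2*, the feedback target of canonical WNT, had medians of 102 and 177 CPM and a log2 fold change of 0.92 (SE 0.26, adjusted p = 0.0144), which was short of the size of a call and passed it without E7.5 WT 3 (1.04) or without E6.5 WT 7.

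The FGF pathway, of ligands, receptor kinases and feedback inhibitors, had called genes in both directions. Of 16 tested FGF pathway genes (17 listed), 5 rose, 6 fell and 5 were not called (list median -0.68). The ligand *Fgf15* did not overlap between stages, at 32.3 to 59.8 CPM against 8.77 to 29.3 CPM (-1.41, SE 0.20, adjusted p = 5.44e-05), and *Fgf8*, the ligand that cells need to leave the streak, went from a median of 66.5 CPM to 15.6 CPM (-1.62, SE 0.30, adjusted p = 6.18e-04). *Dusp6*, the phosphatase that ERK signalling induces, went from 96.3 to 37.6 CPM (-1.2, SE 0.17, adjusted p = 5.56e-05). Among the receptors, *Fgfr1* had medians of 145 and 369 CPM (1.21, SE 0.14, adjusted p = 1.31e-05). *Fgfr2* did not overlap, at 1.46 to 13.7 CPM against 15.4 to 138 CPM (3.67, SE 0.39, adjusted p = 7.86e-06). In GENCODE vM21 the gene *Fgfr2* overlaps *Nkx1-2* and other genes on the same strand, so the counts of *Fgfr2* and *Nkx1-2* may not be independent. The other genes that fell were the ligands *Fgf4* and *Fgf5* and the inhibitor *Spry4*, and the others that rose were *Fgf3*, *Fgfr3* and *Spred1*. *Fgf4* lay between 25.6 and 96.2 CPM in E6.5 WT 1 to 4 and between 5.33 and 13.3 CPM in 5 to 9. At E7.5 it lay between 1.88 and 10.9 CPM. In libraries under 40000000 counts 4 of 16 genes of this list fell, beside 426 of all 18256 genes tested. With depth above that limit as a covariate 5 fell, beside 379 of all 17191 genes tested.

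Notch signalling sets boundaries between somites and keeps progenitors undifferentiated. Of 12 tested Notch pathway genes (14 listed), 7 rose and 5 were not called (list median 2.08). The ligand *Dll1*, of presomitic mesoderm, went from a median of 1.23 CPM (range 0 to 6.49) to 84.1 CPM (1.06 to 192) and rose by 5.65 (SE 0.93, adjusted p = 3.24e-04). *Dll3*, a Notch ligand that acts inside the cell, had medians of 4.85 and 33.3 CPM (2.34, SE 0.40, adjusted p = 3.13e-04). The ligand *Jag1* had medians of 18.3 and 47.7 CPM (1.43, SE 0.18, adjusted p = 1.96e-05), and the receptor *Notch1* medians of 34.7 and 164 CPM (2.32, SE 0.28, adjusted p = 2.36e-05). *Hes3*, a repressor of neural progenitors, had no count at E6.5 and between 0.568 and 12.9 CPM at E7.5, a mean at least 84.5-fold higher than the level of 3 counts per library. *Notch2* had medians of 125 and 222 CPM and a log2 fold change of 0.70 (SE 0.11, adjusted p = 1.27e-04), under the size of a call.

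Retinoic acid is made from vitamin A in trunk mesoderm and opens the HOX clusters. Of 12 tested genes of its synthesis, breakdown and binding (13 listed), 7 rose and 5 were not called (list median 1.89). *Aldh1a2* (RALDH2), the enzyme that makes retinoic acid in the embryo, lay at or below 0.516 CPM at E6.5 and had a median of 96.7 CPM at E7.5. It was at 0.232 CPM in E7.5 WT 3 and between 55.9 and 194 CPM in the other 8, and its log2 fold change was 8.85 (SE 0.97, adjusted p = 1.36e-05), and 9.02 without E7.5 WT 3. Binding proteins also rose. *Crabp1* did not overlap, at 0 to 4.51 CPM against 5.27 to 53.5 CPM (3.51, SE 0.58, adjusted p = 2.65e-04), and *Crabp2* had medians of 12.9 and 47 CPM (1.94, SE 0.32).

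LIF and IL6 family cytokines signal through gp130 (*Il6st*) and JAK kinases to STAT3, the factor deleted in the null embryos of the study. *Stat3* (chr11:100885098-100939540 in GRCm38) had a median of 12.4 CPM at E6.5 (range 5.75 to 29.1) and 11.5 CPM at E7.5 (4.67 to 24.8), a log2 fold change of 0.02 (SE 0.30, adjusted p = 0.973). Of 9 tested genes of the pathway (11 listed), 2 rose and 7 were not called (list median 0.57). *Il6st* did not overlap between stages, at 18.5 to 30.9 CPM against 33.2 to 94.1 CPM, and rose by 1.41 (SE 0.16, adjusted p = 7.34e-06). *Jak2* had medians of 3.1 and 9.9 CPM (1.69, SE 0.30, adjusted p = 3.27e-04). *Jak1*, another kinase of the pathway, had a log2 fold change of 0.57 (SE 0.14), under the size of a call. *Socs3*, the feedback inhibitor that STAT3 induces, had medians of 3.48 and 9.55 CPM and a log2 fold change of 1.43 (SE 0.53, adjusted p = 0.0532). It was not called with all libraries and was called when E6.5 WT 1, 2 or 3 or E7.5 WT 3 was left out.

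The promoters of streak and mesoderm genes were searched for the letters CTTTGAT, the core that TCF and LEF factors bind in canonical WNT signalling, on both strands of the 250 bases before each start in RefSeq (GRCm38.p6). These letters were found in 1053 of 32851 promoters (3.21%), in 1 of the 11 promoters of the primitive streak list that matched RefSeq, of 14 genes (*Sp5*), and in 2 of the 9 that matched, of 11 genes, of the nascent and paraxial mesoderm list (*Mesp1* and *Msgn1*). The T-box site TCACACCT was found in 368 of 32851 promoters (1.12%) and in none of the 11 and 9. The 3 promoters with the first motif are shown because they belong to genes of the streak and of the mesoderm that leaves it, with the motif in capitals, each read 5' to 3' on the strand of the gene. That of *Sp5* is chr2:70474673-70474922 on the plus strand with the motif 104 to 98 bases before the start, that of *Mesp1* is chr7:79793591-79793840 on the minus strand with the motif 31 to 25 bases before the start, and that of *Msgn1* is chr12:11208949-11209198 on the minus strand, with the motif on the other strand (ATCAAAG) 203 to 197 bases before the start.
Sp5: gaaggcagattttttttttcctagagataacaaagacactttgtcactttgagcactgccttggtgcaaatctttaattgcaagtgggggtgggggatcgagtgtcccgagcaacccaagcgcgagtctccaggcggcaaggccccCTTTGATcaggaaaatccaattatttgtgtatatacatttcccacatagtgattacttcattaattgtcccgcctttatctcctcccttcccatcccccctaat
Mesp1: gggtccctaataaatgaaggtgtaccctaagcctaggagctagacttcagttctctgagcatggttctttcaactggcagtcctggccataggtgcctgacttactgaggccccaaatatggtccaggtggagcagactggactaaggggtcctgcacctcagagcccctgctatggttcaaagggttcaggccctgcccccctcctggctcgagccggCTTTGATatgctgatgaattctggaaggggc
Msgn1: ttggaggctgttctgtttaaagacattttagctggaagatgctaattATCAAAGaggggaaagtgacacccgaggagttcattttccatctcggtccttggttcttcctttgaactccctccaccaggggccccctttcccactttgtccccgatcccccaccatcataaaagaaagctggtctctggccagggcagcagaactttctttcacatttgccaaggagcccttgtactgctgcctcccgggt
Of the 3 genes, *Msgn1* was at 0 in every E6.5 epiblast and reached 26.8 CPM at E7.5, while *Sp5*, a WNT target factor, ran from 0.185 to 38.9 CPM at E6.5 and from 7.38 to 66.3 CPM at E7.5 and was not called (log2 fold change 1.9, SE 0.79, adjusted p = 0.0904), as *Mesp1* was not. A match of these letters is a description of the sequence and does not show that a factor binds there.

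The matrix between cells is laid down by mesenchyme and epithelia. Of 16 tested matrix genes (18 listed), 5 rose and 11 were not called (list median 0.98), and without E6.5 WT 3 8 rose of 17. *Col5a1*, a fibrillar collagen, did not overlap, at 3.12 to 21.2 CPM against 21.8 to 78.1 CPM (1.78, SE 0.33, adjusted p = 5.93e-04), and the proteoglycan *Vcan* had medians of 24.2 and 125 CPM (2.28, SE 0.41, adjusted p = 6.42e-04). The basement membrane genes *Lama5* and *Col18a1* had log2 fold changes of -0.88 (SE 0.15) and -0.47 (SE 0.09), under the size of a call. Of 19 glycolysis genes 2 were called, a share near the 8.83% of all genes tested. They were the glucose transporters *Slc2a1* (425 to 925 CPM in the medians, 1.04, SE 0.15, adjusted p = 6.37e-05) and *Slc2a3* (201 to 1297 CPM, 1.96, SE 0.37, adjusted p = 8.99e-04), which rose. The call of *Slc2a1* was lost without E6.5 WT 8 and without E7.5 WT 5, and the other 17 genes of the list, which include all its enzymes, were not called. Among these enzymes, *Gapdh* had a log2 fold change of -0.47 (SE 0.09) and *Ldhb*, of lactate dehydrogenase, of 0.64 (SE 0.09). The highest E6.5 level of *Slc2a3*, 846 CPM, came from E6.5 WT 3, the library with the highest visceral endoderm markers, and the part of those markers was not tested. Of 20 cell cycle and replication genes, *Ccnd2* (cyclin D2) and *Cdkn1c* (p57) rose and 18 were not called, again a share near 8.83%, with a list median of -0.13. *Ccnd2* did not overlap between stages, at 5.17 to 20.5 CPM against 20.8 to 267 CPM (3.74, SE 0.41, adjusted p = 1.06e-05). *Ccne1* had medians of 181 and 108 CPM and *Top2a* of 878 and 739.8 CPM, with log2 fold changes of -0.62 (adjusted p = 7.77e-04) and -0.25 (adjusted p = 3.88e-04) that were under the size of a call.

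Of 12 imprinted growth genes, which are read from 1 parental allele, 7 rose and 5 were not called (list median 2.08), and without E7.5 WT 3 7 rose and 1 fell. *Peg3*, a paternally expressed zinc finger gene, went from a median of 239.9 CPM (range 160.0 to 706) to 1794 CPM (350.0 to 1949), a log2 fold change of 2.5 (SE 0.32, adjusted p = 4.80e-05). *Cdkn1c*, the maternally expressed inhibitor of the cell cycle, went from 13.3 to 83 CPM (2.2, SE 0.38, adjusted p = 4.11e-04), and *Plagl1*, a paternally expressed zinc finger gene, from 1.38 to 10.6 CPM (3.02, SE 0.55, adjusted p = 4.69e-04). *Grb10*, an adaptor that restrains growth, had medians of 376 and 716 CPM and a log2 fold change of 0.90 (SE 0.12), under the size of a call. The genes that rose thus included paternally and maternally expressed ones. For *Peg3* and *Cdkn1c* the highest E6.5 level came from E6.5 WT 3 and the lowest E7.5 level from E7.5 WT 3, and the other libraries did not overlap between the stages. E6.5 WT 3 is also the library with the highest visceral endoderm markers, whose part in these values was not tested.

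Outside the lists, the genes with the smallest p whose stages did not overlap were picked by rule, so that their separation was fixed by the choice. Among those that were higher, *Cald1* (caldesmon, an actin-binding protein of contractile and migrating cells) lay between 33.8 and 54.2 CPM at E6.5 and between 64.8 and 177 CPM at E7.5 (1.65, SE 0.14, adjusted p = 1.17e-06). *Rgma*, a BMP coreceptor and guidance molecule, lay between 4.01 and 7.59 CPM and between 11.1 and 139 CPM (4.23, SE 0.34, adjusted p = 1.17e-06). The cell surface and adhesion genes *Cd24a* (1.04), *Frem1* (3.32), *Pcdh18* (2.02) and *Parva* (2.11) and the genes *Fignl2* (2.74), *Pdzrn3* (1.5), *Eid1* (1.05) and *Trim35* (1.05) completed the 10, with their log2 fold changes in parentheses. Among those that were lower, *Tmem8* had the smallest p, at 25.8 to 55.4 CPM against 6.71 to 13.4 CPM (-1.91, SE 0.16, adjusted p = 1.17e-06). *Akap12*, a scaffold of protein kinase A, lay between 553 and 999.6 CPM and between 199 and 433 CPM (-1.47, SE 0.15, adjusted p = 4.70e-06), and *Grhl2*, an epithelial transcription factor, between 60.8 and 95.8 CPM and between 29.1 and 56.1 CPM (-1.03, SE 0.11, adjusted p = 5.19e-06). *Syce2*, of the synaptonemal complex, fell by 1.37, *Pmm1* by 1.32, *Rps4l* by 1.3, *Ahdc1* by 1.14, *Adgrl1* by 1.04, *Zfp110* by 1.04 and *Unc5b* by 1.03 on the log2 scale. The calls of *Eid1*, *Trim35*, *Grhl2* and *Zfp110* were lost in libraries under 40000000 counts, that of *Adgrl1* without E6.5 WT 1, those of *Grhl2* and *Unc5b* without E6.5 WT 3 or E7.5 WT 1, that of *Unc5b* also without E7.5 WT 2 or 9, and that of *Zfp110* without E7.5 WT 5, each with a fold close to the limit of a call.

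Markers of tissues that dissection should have removed were read in the same libraries. All 17 visceral endoderm markers were detected, and their summed level ran from 86.1 to 6037 CPM at E6.5 (median 209.9) and from 473 to 4575 CPM at E7.5 (median 1799). Of 16 tested, 3 were higher at E7.5 with all libraries and 13 were not called (list median 1.03), and 13 were higher without E6.5 WT 3. Among libraries under 40000000 counts, where E6.5 ran from 86.1 to 965 CPM, all 17 were called higher (list median 3.12), beside 8.42% of all genes tested in those libraries, and with depth above that limit as a covariate 16 of 16 were (6.74% of all genes). When both libraries of replicate 3 were left out it was 14 of 16 (8.47% of all genes). *Ttr*, a transport protein of visceral endoderm, had medians of 4.62 CPM (range 0.928 to 76.5) and 63.8 CPM (12.2 to 200.2) and log2 fold changes of 2.47 (SE 0.80, adjusted p = 0.0313) in all libraries and 4.08 in those under 40000000 counts. *Rbp4*, which carries retinol, had medians of 4.88 and 47.2 CPM (2.74, SE 0.76, adjusted p = 0.0136), and *Fga*, a fibrinogen chain, reached 0.644 CPM at E6.5 and 8.39 CPM at E7.5 (5.42, SE 1.11, adjusted p = 0.00118). *Spink1*, a protease inhibitor, was not called (1.48, SE 0.57). The call of *Ttr* was lost without any of E6.5 WT 2, 5, 6, 8 or 9 or E7.5 WT 4, 6 or 7. The markers moved with stage, beside the gene groups that rose, and their part in the axial and endoderm, *Gata4*, *Tbx3*, *Prdm1*, matrix, imprinted and transporter results was not tested.

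**Figure D5:**
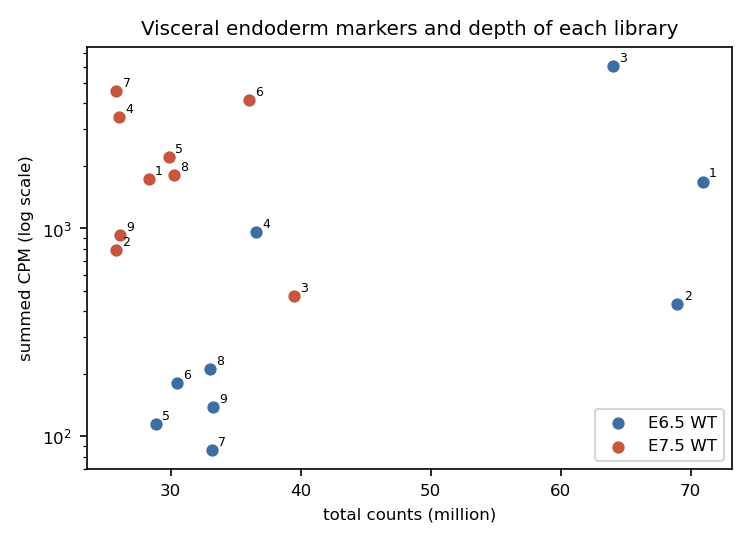
Summed level of the visceral endoderm markers (y axis, CPM on a log scale) against the total count of each of the 18 WT libraries (x axis, in units of 1000000), with E6.5 and E7.5 in different colours and the replicate number beside each point. The 3 E6.5 libraries over 40000000 counts lie between 431 and 6037 CPM, the other 6 between 86.1 and 965 CPM, and the E7.5 libraries between 473 and 4575 CPM.

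Markers of other tissues and of RNA source were read as well. Markers of extraembryonic ectoderm and trophoblast summed to between 8.60 and 115 CPM at E6.5 and between 18.02 and 63.1 CPM at E7.5, 7 of the 11 were too low to be tested, and edgeR called 0 of the 4 tested, with 1 at an unadjusted p under 0.05. DESeq2 called 1 of 10 of these markers lower, beside 770 genes over the whole table. Their summed level had medians of 14.4 and 35.2 CPM, and 1 was called higher without E6.5 WT 3, without both libraries of replicate 3, in libraries under 40000000 counts and with depth as a covariate. Among the 4 were *Rhox5*, *Wnt7b* and *Plet1*, with log2 fold changes of 0.39, -0.70 and 0.27, and the highest level of *Rhox5* was 99.95 CPM, at E6.5. *Tpbpa* had no count in any library. Markers of maternal decidua and adult blood summed to at most 4.07 CPM at E6.5 and 14.9 CPM at E7.5, and *Ptprc*, *S100a8* and *S100a9* had no count. The adult globin *Hba-a1*, the member of this list that was tested, was not called by edgeR (1.87, SE 1.27). DESeq2 called 2 of 7 members higher, beside 1561 genes over the whole table. The filter of 5 libraries gave 1 of 4, beside 6.12% of all genes tested in that way. Of 13 mitochondrially encoded genes edgeR and DESeq2 each called 0, with 8 at an unadjusted p under 0.05 in edgeR (list median -0.33). Those with the smallest p were *mt-Nd1* (-0.46), *mt-Co1* (-0.50), *mt-Atp6* (-0.31) and *mt-Atp8* (-0.33). Summed Y chromosome genes were over 100 CPM in 4 of 9 E6.5 and 7 of 9 E7.5 epiblasts, so the sexes were not balanced between the stages, edgeR and DESeq2 each called 0 of the 4 (*Ddx3y*, *Eif2s3y*, *Uty* and *Kdm5d*), 0 of which had an unadjusted p under 0.05, and the fit with these genes as a covariate called 987 genes higher and 561 lower. The sum was 12.3 CPM in E6.5 WT 2, 10.9 CPM in E6.5 WT 3 and at most 1.69 CPM in the other libraries under 100 CPM. The source of these counts was not tested.

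The same stage comparison in *Stat3* null epiblasts (8 at E6.5 and 3 at E7.5) was set against that in WT by an interaction term in 1 fit of the 29 libraries. The null allele leaves other exons of *Stat3*, from which reads can still be counted. *Stat3* also overlaps *Stat5a* on the opposite strand, and the source of its counts in null epiblasts was not tested. *Stat3* was at 13.3 ± 7.17 and 13.6 ± 5.84 CPM in WT at E6.5 and E7.5 (mean ± SD, n = 9 each) and at 4.4 ± 2.53 (n = 8) and 1.35 ± 0.138 CPM (n = 3) in null epiblasts, with lower means in null than in WT at both stages. Its stage changes differed by 1.74 (WT minus null, SE 0.62, edgeR adjusted p = 0.164), which was not called. Of 22122 genes tested, 57 (0.258%) had a change that was higher in WT than in null and 41 (0.185%) a change that was lower (98 in all, 0.443%). *Dusp6* fell in WT from 92.6 ± 9.02 to 40.5 ± 15.6 CPM (mean ± SD, n = 9 each). In null epiblasts it was 65.2 ± 16.3 CPM (n = 8) and 92 ± 12.8 CPM (n = 3), and the difference of the log2 changes, WT minus null, was -1.69 (SE 0.28, edgeR's quasi-likelihood test, adjusted p = 0.00841). The other genes with the smallest p in this direction were *Zfp36l2* (-1.21, adjusted p = 0.00841), which encodes an RNA-binding protein that destabilizes mRNA, and *Rbpms* (-1.09, adjusted p = 0.0156), which encodes another RNA-binding protein. In the opposite direction stood *Fndc3b* (2.61, adjusted p = 0.00863), *Fhdc1* (3.7, adjusted p = 0.0195) and *Stard8* (5.32, adjusted p = 0.0199), of which *Fndc3b* had a mean of 18.8 ± 6.69 CPM at E6.5 and 48.3 ± 16.3 CPM at E7.5 in WT, and of 37.3 ± 17.1 and 15.7 ± 1.25 CPM in null epiblasts. These numbers rest on 3 null epiblasts at E7.5. The study reports that null epiblasts are delayed in development. A comparison by embryonic day cannot tell such a delay from another difference between the genotypes, and the part of the delay was not tested. For each gene named for its small p, the mean of null epiblasts at E7.5 lay within the range of WT at E6.5. This range was 74.4 to 107 CPM for *Dusp6* and 13.5 to 35.2 CPM for *Fndc3b*. The mean of null epiblasts at E6.5 lay, for each of these genes, between the WT means of E6.5 and E7.5. For *Stard8* it was 19.4 CPM, against 6.10 and 56.8 CPM in WT. From E6.5 to E7.5 the null mean of each moved in the direction opposite to that in WT. Leaving out single libraries gave between 0 and 359 genes with a higher and between 0 and 217 with a lower change in WT, and any library other than E6.5 null 1 or 6 or E6.5 WT 1 moved the higher number by over 1.5 times. Without E7.5 null 1 or 2 edgeR called 0 genes, with 2550 of 23327 and 2484 of 23336 at an unadjusted p under 0.05. Without E7.5 WT 3 217 genes had a lower change in WT, and without E6.5 WT 3 359 had a higher one.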

How the data were processed

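Processing covered the 18 WT E6.5 and E7.5 epiblast libraries, with 11 *Stat3* null libraries of these stages for the interaction. The authors trimmed reads with Trim Galore, aligned them to GRCm38 (mm10) with HISAT2 and deposited counts per gene made with StringTie, per the labels and the study's methods. The annotation version and the strand setting are not given in the sources used here. The count table held 47643 genes. Genes were named by the table, and coordinates come from GENCODE vM21, where 47224 of them matched.

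Counts were tested as deposited with edgeR (4.0.16, R 4.3.3) by its quasi-likelihood test with TMM factors, filterByExpr by group and robust dispersions, and p-values were adjusted by Benjamini and Hochberg over all genes tested. The 27 gene lists (390 entries) hold 5 lists of other cell types or RNA sources. Members and lists were chosen with earlier results of these data known. The rule named *Stat3*, the 4 members of each list with the smallest p, called members without counts in a stage, a set of defining genes per lineage, the first and last HOX gene called in each cluster, the 10 higher and 10 lower genes outside the lists with the smallest p and no overlap, and 3 interaction genes per direction. Other genes named in the text, among them the HOX genes given by place, *Dppa4*, *Lin28a*, *Sall4*, *Dll1*, *Msgn1*, *Bmp5*, *Shh*, *Notum*, *Pax3*, *Sp5* and the members named only as called or not called, were chosen after their values were seen. Alternatives were DESeq2 (1.42.0), limma's voom (3.58.1), other filters, depth, the Y chromosome level and the replicate number as covariates, and leaving out single libraries. The 5-library filter and the libraries under 40000000 counts alone were chosen after seeing the data. Single values per library were compared by exact permutation.

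Of 192 genes checked by blastn (2.17.0), 15 have a copy of at least 95% identity over at least 200 bases elsewhere (among them *Dppa4*, *Tdgf1*, *Gapdh*, *Cd24a* and *Parva*), and 74 overlap a gene on the opposite strand and 33 a gene on the same strand, so that their counts are uncertain to that extent. One long non-coding gene, *Gm26917*, took up to 11.37% of the counts of a library. The highest correlation of 2 WT libraries was 0.985. The libraries of EpiSC lines were not used here, and values of some genes of the lists are not reported here. Steps across all genes were tested on simulated data.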

Additional observations from a re-analysis of the deposited data

Results flagged for a closer look

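The level of each of 189 genes named in the text, on the scale of log2 of CPM + 1, the number of genes at 1 CPM and the distance from the own stage were examined in each group of 9 epiblasts for a highest or lowest library that stood apart from the other 8, by Dixon's 95% criterion for the gap to its neighbour as a share of the range of the group. Chance marks about 1 in 20 groups. Of 100 values that stood apart, 80 came from the library labelled E7.5 WT 3 and 10 from E6.5 WT 3. Over whole libraries, E7.5 WT 3 had 14403 genes at 1 CPM or more, the lowest number of its stage, and the largest distance from its own stage, 0.498, and E6.5 WT 3 the largest distance of the E6.5 epiblasts, 0.324. All levels below are in CPM.

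E7.5 WT 3 held the highest E7.5 level of pluripotency genes, with *Fgf5* at 158, *Otx2* at 186, *Dnmt3a* at 424, *Utf1* at 234 and *Etv5* at 258. Of the streak genes it held the highest E7.5 level of *Eomes* (206) and the lowest of *T* (5.55), *Wnt3a* (0.284), *Sp5* (7.38), *Cdx2* (0.671) and *Nkx1-2* (2.81). Its levels of *Snai1* (4.10), *Twist1* (2.76), *Cdh2* (32.3), *Vim* (38.4) and *Fn1* (222), genes of the epithelial to mesenchymal transition, were the lowest of the stage. The same held for the mesoderm genes *Tbx6* (0.774), *Msgn1* (0), *Dll1* (1.06), *Pdgfra* (4.16), *Foxc1* (0.594), *Foxc2* (0.465), *Hand1* (0.852) and *Foxf1* (0.103) and for *Aplnr* (4.08), *Kdr* (0.516) and *Gata2* (0) of the blood and endothelium list. It also held the lowest level of *Sox17* (7.33), *Shh* (0) and *Noto* (0) of the axial and endoderm list and of *Six3* (2.89), *Gbx2* (0.620), *Irx3* (5.16) and *Tfap2a* (1.24) of the ectoderm list. The HOX genes *Hoxb1* and *Hoxb2* were at 0 in it.

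Of the signalling genes, *Tdgf1* was highest in E7.5 WT 3 (40.6) and *Foxh1* lowest (45.8). The WNT genes *Wnt5a* (3.05), *Axin2* (45.5), *Rspo3* (2.87) and *Notum* (0), the FGF genes *Fgf3* (0.465), *Fgfr1* (138), *Fgfr2* (15.4), *Fgfr3* (0.878) and *Spred1* (65.4) and the BMP genes *Bmp5* (0) and *Bmp7* (2.22) were lowest in this library. So were the Notch genes *Jag1* (17.4), *Notch1* (23.9), *Notch2* (126) and *Hes3* (0.568) and the retinoic acid genes *Aldh1a2* (0.232) and *Crabp2* (6.84). Of the remaining lists, *Lama5* (376), *Top2a* (849), *Ccne1* (168) and *Gapdh* (174) were highest and *Jak1* (32.5), *Ccnd2* (20.8), *Cdkn1c* (14.3) and *Peg3* (350.0) lowest. Outside the lists *Akap12* (433), *Adgrl1* (243), *Pmm1* (27.0), *Ahdc1* (257) and *Rbpms* (158) were highest in it. *Cald1* (64.8), *Rgma* (11.1), *Cd24a* (211), *Fignl2* (15.9), *Frem1* (6.01), *Pcdh18* (13.2), *Trim35* (51.8), *Fndc3b* (16.8), *Fhdc1* (6.97) and *Stard8* (4.57) were lowest.

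E6.5 WT 3 held the lowest E6.5 level of *Pou5f1* (427), *Zscan10* (127), *Acvr2b* (53.8), *Bambi* (2.42) and *Pdzrn3* (14.1) and the highest of *Spry4* (153), *Cdkn1c* (47.3), *Peg3* (706) and *Fndc3b* (35.9). The other 10 values fell on 5 epiblasts. E6.5 WT 1 was highest for *Acvr1b* (65.2) and lowest for *Fgfr2* (1.46), *Socs3* (0) and *Tfap2c* (0), and E6.5 WT 4 was highest for *Vim* (37.3) and lowest for *Pcdh18* (5.22). E6.5 WT 8 was highest for *Kdr* (1.55) and *Smad2* (42.5), E6.5 WT 6 for *Hoxa10* (1.02) and E7.5 WT 5 for *Dppa4* (1.45).

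The stage change differed between WT and *Stat3* null epiblasts, by the interaction test, for the 6 genes given at the end of the report, with differences of the log2 changes (WT minus null) of 2.61 for *Fndc3b*, 3.70 for *Fhdc1*, 5.32 for *Stard8*, -1.21 for *Zfp36l2*, -1.69 for *Dusp6* and -1.09 for *Rbpms*. The part of a developmental delay of the null epiblasts in these differences was not tested.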

How the results depend on the processing

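With all libraries 987 genes were higher and 531 were lower at E7.5. The higher count was 1561 with DESeq2, 1890 without a filter on low counts, 1681 with voom and sample quality weights and 1537 in libraries under 40000000 counts alone (6 E6.5 and 9 E7.5), and the lower count was 915 without the filter and 929 with voom. Leaving out single libraries gave 871 to 1303 higher and 472 to 689 lower genes, and 1465 and 703 when both libraries of replicate 3 were left out, with 1453 of the 1518 calls kept. With at least 10 counts in 5 libraries 1180 and 585 genes were called and 1469 calls were kept. Over the lists, leaving out single libraries gave 89 to 127 higher and 22 to 34 lower genes.

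For the interaction, 57 genes had a higher and 41 a lower stage change in WT. These counts were 506 and 127 with DESeq2, 14 and 21 without a filter, 119 and 67 at a mean count of at least 50, and 884 and 615 with voom. The lower count was 18 with all 35 epiblast libraries in 1 fit. With libraries over 40000000 counts as a covariate they were 576 and 291, and without both libraries of replicate 3 they were 553 and 254. Leaving out single libraries gave 0 to 359 and 0 to 217.

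With the replicate block the stage counts were 1027 and 526 and the interaction counts 16 and 6. The WT samples share only a number, since 0 of 9 same-numbered pairs correlated over 0.1 (-0.144 to 0.0972) and 1 of 9 samples correlated best with its own number.

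The mean distance from the own stage differed by -0.0151 (E7.5 against E6.5, two-sided exact permutation test, p = 0.800), by -0.0660 to 0.0240 when single libraries were left out and by 0.0584 in libraries under 40000000 counts, the positive values being in the other direction. Without E7.5 WT 3 it was -0.0660 (exact permutation test, p = 0.00111). Of the named genes none changed direction under the alternatives listed here, and calls were lost for 4 under voom (*Aldh1a2*, *Foxf1*, *Gata2* and *Kdr*), for 9 with all 35 libraries in 1 fit, for 5 with the replicate block, for 2 with the Y chromosome level as a covariate, for 2 without a filter, for 1 with the 5-library filter, for 0 to 8 when single libraries were left out, for 6 in libraries under 40000000 counts and for 7 with depth as a covariate. The cause was not tested. A count of 3 in 1 library, the level under which no difference was read, was 0.0439 to 0.114 CPM.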
